A study of Mus musculus with 3 samples.

Results

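T cells whose T cell receptor beta chain (TRB) carried a net positive CDR3 made up 471 of 5915 sciatic nerve T cells with a single productive TRB. The net charge of a CDR3 was counted as +1 for each lysine (K) or arginine (R) and -1 for each aspartate (D) or glutamate (E) over the whole deposited CDR3, and a member had a net charge of +1 or more. The 471 cells carried 278 of 3488 distinct TRB rearrangements, counted within a library as combinations of V gene, CDR3 nucleotides and J gene. Cells with a net negative TRB numbered 3600 and held 2256 rearrangements, and cells with a net charge of 0 numbered 1844 and held 954. All cells came from neuropathic NOD.AireGW/+ mice, a NOD line with a partial loss-of-function allele of Aire, the thymic regulator that lets developing T cells meet tissue antigens. These mice develop spontaneous autoimmune peripheral neuropathy, and the study used females. Their age is not given in the sources used here. CD45+ cells were sorted from digested sciatic nerve after cardiac perfusion and submitted to droplet-based scTCR-Seq, which reads the receptor chains of single cells. There was 1 condition and no control group, with 3 libraries. Replicates 1 and 2 were 1 mouse each, and replicate 3 pooled 2 mice. The cells were not separated into CD4+ and CD8+ T cells here.

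The beta chain is joined in the thymus from a V, a D and a J segment, and bases are trimmed and added at both joints without a template. The CDR3 spans those joints and is the loop that lies over the bound peptide in most receptors. Its charge therefore has 2 kinds of source, the germline ends of the segments and the bases made or kept at the joints. Arginine and lysine carry a positive side chain and aspartate and glutamate a negative one. The paired alpha chain (TRA) brings a CDR3 of its own, and a clone is the set of cells that descend from 1 rearranged T cell.

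The germline ends that meet in the CDR3 are shown first, since the results turn on which of them carry a charged codon. They were read from the reference genome of the mm10 assembly (GRCm38, chromosome 6, plus strand for those shown), with codons for K, R, D or E in capitals in the frame of the CDR3. The coordinates are those of the annotated segment, of which the bases within the CDR3 are printed for V and J.
TRBJ1-4, chr6:41534811-41534861: tttccaacGAAAGAttatttttc
TRBJ2-2, chr6:41542957-41543007: caaacaccgggcagctctacttt
TRBJ2-4, chr6:41543362-41543410: agtcaaaacaccttgtacttt
TRBJ2-7, chr6:41543810-41543856: ctcctatGAAcagtacttc
TRBJ2-1, chr6:41542754-41542803: taactatgctGAGcagttcttc
TRBD1, chr6:41533201-41533212, in the frame that reads DRG: ggGACAGGgggc
TRBD2, chr6:41542163-41542176, in the frame that reads DWGG: ggGACtgggggggc
TRBV17, chr6:41163062-41163556, CDR3 end: tgtgctagcagtAGAga
TRBV13-1, chr6:41116007-41116468, CDR3 end: tgtgccagcagtGATg
TRBJ1-4 encodes a glutamate beside an arginine, which sum to 0, TRBJ2-2 and TRBJ2-4 encode no charged residue, and TRBJ2-7 and TRBJ2-1 encode a glutamate. TRBD1 can be read as DRG, while the matching frame of TRBD2 holds an aspartate and no arginine.

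The 3 largest net positive rearrangements of each library and the member of highest charge are shown next as nucleotide CDR3s, with the codons for K or R in capitals.
Replicate 1, TRBV5 and TRBJ2-7, 15 cells: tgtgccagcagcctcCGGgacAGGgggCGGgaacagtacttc
Replicate 1, TRBV29 and TRBJ1-3, 7 cells: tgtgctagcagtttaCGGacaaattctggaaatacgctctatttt
Replicate 1, TRBV16 and TRBJ1-4, 5 cells: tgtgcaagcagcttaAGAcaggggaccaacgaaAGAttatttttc
Replicate 2, TRBV13-3 and TRBJ2-5, 13 cells: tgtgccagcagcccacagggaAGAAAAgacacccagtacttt
Replicate 2, TRBV29 and TRBJ1-3, 11 cells: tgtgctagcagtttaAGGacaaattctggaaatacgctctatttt
Replicate 2, TRBV14 and TRBJ1-5, 10 cells: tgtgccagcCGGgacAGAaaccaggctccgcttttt
Replicate 3, TRBV19 and TRBJ1-4, 14 cells: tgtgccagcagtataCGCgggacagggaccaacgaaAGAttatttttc
Replicate 3, TRBV29 and TRBJ2-2, 5 cells: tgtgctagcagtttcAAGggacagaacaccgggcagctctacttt
Replicate 3, TRBV17 and TRBJ2-4, 4 cells: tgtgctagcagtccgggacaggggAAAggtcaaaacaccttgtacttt
Replicate 2, TRBV17 and TRBJ2-5, 1 cell, net charge +3: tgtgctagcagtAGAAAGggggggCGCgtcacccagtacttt
In these CDR3s most of the capitals lie in the middle, between the V and J ends, of which only some are printed above.

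The libraries held 2374, 3555 and 705 cells with a productive chain in replicates 1, 2 and 3, with 34630, 41338 and 5142 unique molecular identifiers (UMIs). Barcodes with more than 1 productive TRB numbered 114, 217 and 10 and were left out. No doublet caller was run, and whether those barcodes, or the 35 net positive and 220 net negative cells with more than 1 TRA, were doublets was not tested. 9 barcodes occurred in more than 1 library, none of them with the same TRB rearrangement, and 2 of them were net positive in any library. Replicate 3 was the shallowest library and gave the widest intervals below.

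Net positive TRBs were a small class in every library. Among cells they were 163 of 2139 in replicate 1 (7.62%, 95% exact binomial interval 6.53 to 8.83%), 246 of 3144 in replicate 2 (7.82%, 6.91 to 8.82%) and 62 of 632 in replicate 3 (9.81%, 7.60 to 12.4%). The mean share of cells was 8.42% ± 1.21 (SD, n = 3 libraries). Among distinct rearrangements they were 108 of 1165 (9.27%), 135 of 1803 (7.49%) and 35 of 520 (6.73%), with a mean of 7.83% ± 1.30 (SD, n = 3). The order of the libraries was thus opposite for cells and for rearrangements, and replicate 3 was highest by cells and lowest by rearrangements. 1 clone of 14 cells, the TRBV19 and TRBJ1-4 rearrangement printed above, held 22.6% of the net positive cells of replicate 3. Intervals here cover counting error only.

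**Figure D1:**
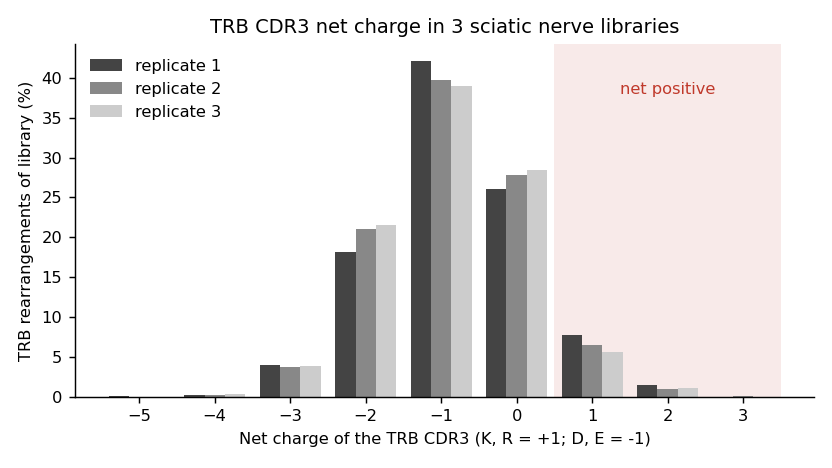
Share of the distinct TRB rearrangements of each library (y axis, percent) at each net charge of the TRB CDR3 (x axis), with 1 bar per library and the net positive range shaded. In all 3 libraries the mode was -1, between 39.0% and 42.1% of rearrangements, and +1 held 5.58% to 7.81%.

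Charge ran from -5 to +3 over all rearrangements, and -1 was the most frequent value in each library, as the plot of rearrangements by charge shows. Just outside the threshold, at a charge of 0, there were 954 rearrangements in 1844 cells. Just inside it, at +1, there were 237 rearrangements in 406 cells. A charge of +2 was reached by 40 rearrangements in 64 cells and +3 by 1 rearrangement in 1 cell, whereas 846 rearrangements lay at -2 or below. The net negative share of rearrangements varied least among libraries, at 64.6%, 64.7% and 64.8%.

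Arginine supplied most of the positive charge. The 278 net positive CDR3s held 453 arginines and 50 lysines, so that 90.1% of their basic residues were arginine (89.5%, 89.1% and 95.4% by library). It was 90.8% in net neutral and 94.2% in net negative CDR3s. A single basic residue was enough in 107 of them, 125 had 2 and 46 had 3 or more, up to 4. No acidic residue was present in 125 of the 278 (45.0%), with 45.4%, 45.2% and 42.9% by library, and the other 153 outweighed at least 1 acidic residue. Arginine followed by glycine was found in 35.6% of net positive CDR3s (28.7%, 40.7% and 37.1% by library), 19.1% of net neutral and 4.92% of net negative ones. These compositions describe what the charge rule selected and were not tested.

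Net positive CDR3s were slightly longer than net negative ones in every library. Mean lengths were 14.3, 14.2 and 14.3 residues for net positive CDR3s and 14.0, 13.9 and 13.9 for net negative ones in replicates 1, 2 and 3. The difference was 0.315 residues ± 0.070 (SD, n = 3 libraries), and the median length was 14 in both classes over all libraries, with 15 for net positive CDR3s in replicate 3. The range was 10 to 19 residues for net positive and 9 to 19 for net negative CDR3s. Length was read from the same CDR3 as charge, so it was not tested either.

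J gene use differed widely between the classes. Of the 12 TRBJ genes seen, TRBJ1-1, TRBJ1-2, TRBJ2-1, TRBJ2-3, TRBJ2-5 and TRBJ2-7 have a germline CDR3 part with a net charge of -1, and TRBJ1-3, TRBJ1-4, TRBJ1-5, TRBJ1-6, TRBJ2-2 and TRBJ2-4 have one of 0. Among rearrangements with a matched germline V and J, the 6 neutral J genes made up 78.2%, 72.7% and 69.7% of the net positive class and 18.7%, 14.7% and 14.0% of the net negative class in replicates 1, 2 and 3. Read the other way, 198 of 1010 rearrangements with a neutral J gene were net positive (19.6%, exact interval 17.2 to 22.2%), against 68 of 2350 with an acidic J gene (2.89%, 2.25 to 3.65%). The ranges over libraries did not overlap, at 16.4 to 22.3% and 2.77 to 2.92%. The J-encoded residues are part of the charge, so this is a description of the class and not an independent finding.

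TRBJ1-4 was the most used J gene of net positive TRBs. It made up 24.1%, 22.2% and 22.9% of net positive and 4.91%, 3.69% and 4.15% of net negative rearrangements in replicates 1, 2 and 3. TRBJ2-7, the most used J gene of net negative TRBs at 24.6%, 24.0% and 22.6%, made up 5.56%, 5.19% and 5.71% of net positive ones. Both genes varied by under 3 percentage points among libraries within a class.

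The other neutral J genes were less even among libraries. TRBJ2-4 made up 13.9%, 14.8% and 20.0% of net positive rearrangements and TRBJ2-2 made up 16.7%, 8.15% and 17.1%. TRBJ1-3 varied most, at 16.7%, 8.89% and 2.86%, the last of which was 1 rearrangement of 35. TRBJ1-5 (3.70%, 9.63% and 0 of 35) and TRBJ1-6 (1.85%, 9.63% and 8.57%) were also uneven. Over the 3 libraries together, 21.1% of TRBJ1-3, 22.4% of TRBJ1-4, 19.3% of TRBJ1-5, 16.8% of TRBJ1-6, 19.3% of TRBJ2-2 and 18.2% of TRBJ2-4 rearrangements were net positive. The 6 summed shares lie close together, and their exact intervals overlap. By library they were less even. TRBJ1-3 was at 33.3%, 15.4% and 6.67% and TRBJ1-5 at 13.3%, 26.0% and 0 of 8, while TRBJ1-4 stayed between 20.5% and 23.2%.

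Among the acidic J genes, the net positive share over the 3 libraries was 3.47% for TRBJ1-1, 2.34% for TRBJ1-2, 1.94% for TRBJ2-1, 2.87% for TRBJ2-3, 4.74% for TRBJ2-5 and 2.15% for TRBJ2-7. With the libraries summed, all 6 were thus far below the neutral J genes. The TRBJ1 cluster, to which 4 of the 6 neutral J genes belong, held 50.9%, 57.0% and 42.9% of net positive rearrangements against 26.3%, 30.3% and 28.2% of net negative ones.

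**Figure D2:**
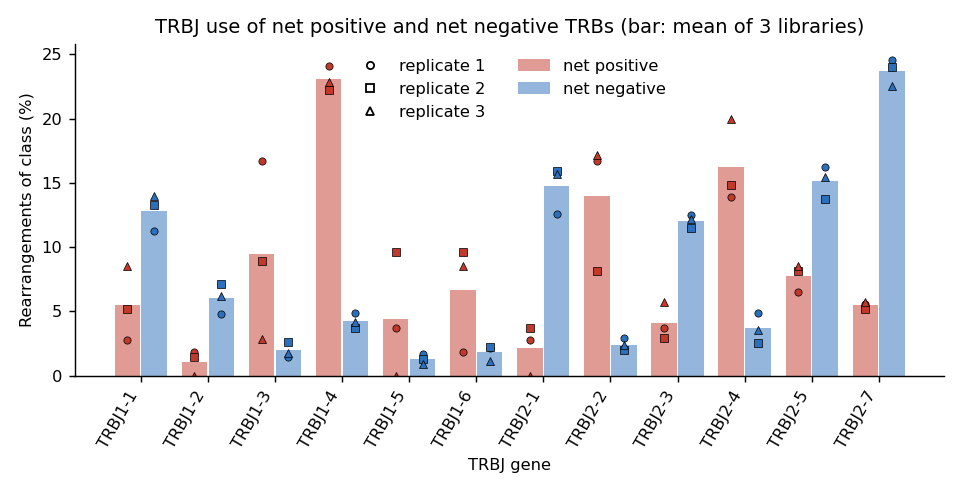
TRBJ gene use (x axis) as a percent of the net positive (red) and net negative (blue) TRB rearrangements (y axis), with bars for the mean of 3 libraries and 1 point per library. The 6 genes whose germline end has no net charge have taller red bars, TRBJ1-4 with 22.2% to 24.1% of net positive rearrangements, and TRBJ2-7 has the tallest blue bar.

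V genes differed less. The germline CDR3 end has a charge of -1 in TRBV13-1, TRBV13-2 (with which the joint name TRBV12-2+TRBV13-2 was read) and TRBV13-3, +1 in TRBV17, TRBV20 and TRBV30, and 0 in the other matched V genes. The net positive share was 8.26%, 4.44% and 3.70% in replicates 1, 2 and 3 with an acidic V end, 9.05%, 8.62% and 6.80% with a neutral one, and 15.1%, 14.6% and 20.0% with a basic one. The genes with a basic end were not alike, with 16 of 71 rearrangements net positive for TRBV17, 12 of 96 for TRBV20 and 0 of 12 for TRBV30. Neutral V ends made up 177 of 266 matched net positive rearrangements (66.5%), 58.0% of net negative ones and 2083 of all 3360 matched ones. They were thus the commonest kind in both classes. The V-encoded residues are part of the charge, so V gene shares, here and for single genes below, describe the class and were not tested.

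5 TRBV genes had at least 20 net positive rearrangements each. TRBV19 had the most, 35 of 294 (11.9%), and its share was 9.78%, 12.0% and 15.9% in replicates 1, 2 and 3. TRBV31 had 23 of 184 (12.5%), at 15.9%, 10.5% and 10.0%. TRBV29 had 20 of 108 (18.5%), at 19.4%, 18.6% and 15.4%. Its exact interval of 11.7 to 27.1% sums rearrangements over libraries and covers counting error only. In each library its share was above the 7.97% of all rearrangements. TRBV13-1 (22 of 293, 7.51%) and TRBV13-3 (20 of 262, 7.63%) were near that level, though TRBV13-3 varied from 4.17% in replicate 2 to 14.5% in replicate 1.

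Other TRBV genes stood at the ends of the order, and were picked out after their values were seen. TRBV17, whose germline end encodes arginine, had the highest share among V genes with at least 50 rearrangements, 16 of 71 (22.5%), at 4 of 17, 9 of 42 and 3 of 12 by library. The lowest was TRBV3 with 3 of 120 (2.50%), and the name TRBV12-2+TRBV13-2 had 12 of 372 (3.23%). That joint name is the pipeline's own. In replicate 1, 2 net positive nucleotide CDR3s, 1 with TRBJ1-1 and 1 with TRBJ1-3, were listed under both TRBV13-2 and TRBV12-2+TRBV13-2, and each was counted as 2 rearrangements. The same held for 7 net neutral and 47 net negative nucleotide CDR3s over all libraries.

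**Figure D3:**
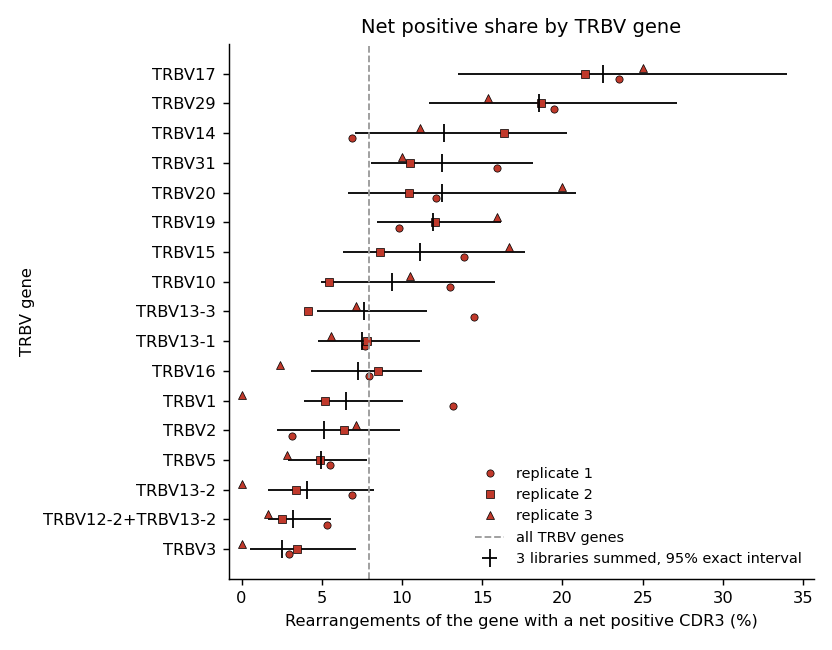
Share of the rearrangements of each TRBV gene that had a net positive CDR3 (x axis, percent), for the 17 TRBV genes (y axis) with at least 50 rearrangements. Ticks are the 3 libraries together with 95% exact binomial intervals, points are libraries and the dashed line is the 7.97% of all rearrangements. TRBV17 and TRBV29 lie farthest to the right, at 22.5% and 18.5%.

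Most of the basic codons lay in the joints or spanned them. For 266 of the 278 net positive CDR3s a germline V and J end could be matched, and their 481 K or R codons were assigned by where their bases lie. Of these codons 320 (66.5%) did not have all bases in 1 matched segment and were called junctional, at 68.3%, 65.2% and 66.1% in replicates 1, 2 and 3. Most of the 320 held a base outside the matched segments. The exceptions were codons that ran from V straight into D, 9 with 1 V base and 7 with 2. The D segment alone supplied 83 (17.3%), J alone 62 (12.9%) and V alone 16 (3.33%). K or R codons were mostly junctional in the other classes too, 62.0% of 803 in net neutral and 55.8% of 602 in net negative CDR3s. D or E codons came mainly from J in every class, 65.9% of 176 in net positive and 50.7% of 3768 in net negative CDR3s, where the junction supplied 31.0%, V 10.0% and D 8.23%.

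As sums of charge per CDR3, the junction gave the net positive class a mean of 1.21, 1.09 and 1.21 in replicates 1, 2 and 3, and the net negative class -0.39, -0.37 and -0.41. The J part gave -0.19, -0.20 and -0.27 in the net positive class against -0.80, -0.85 and -0.85. The V and D parts gave 0.03 and 0.17 in the net positive class over all libraries, and -0.16 and -0.08 in the net negative class. The largest gap between the classes was in the junction, with J the next. The parts add up to the charge that defines the classes. These sums, and the codon origins above, thus describe what the charge rule selected and were not tested.

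**Figure D4:**
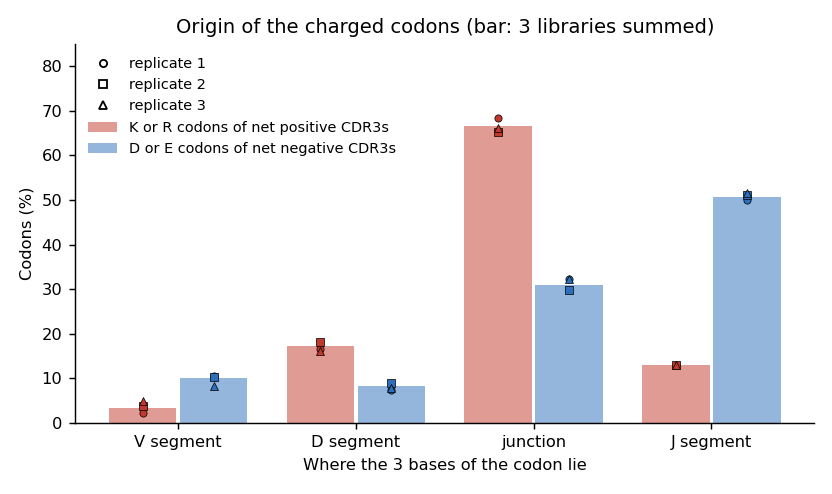
Percent of charged codons (y axis) by where their 3 bases lie (x axis). V, D and J hold codons with all bases in that segment, and junction holds the rest. Red is K or R codons of net positive CDR3s and blue is D or E codons of net negative CDR3s. Bars are the 3 libraries together and points the libraries, and the junction holds 66.5% of the red codons while J holds 50.7% of the blue ones.

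Within the junctional codons, 97 were made of unmatched bases alone and 76 of 1 unmatched base followed by 2 bases of the D segment. All 83 codons from the D segment alone were AGG of TRBD1 and all 62 from J alone were AGA, the arginine codon printed above for TRBJ1-4. Counted over all origins, the commonest codons were AGG (157) and AGA (118), followed by CGG (63), CGA (49), CGC (35), AAA (27), AAG (21) and CGT (11). Position 6 of the CDR3, counted from 1 at its first cysteine, held 24.9% of the basic residues and positions 4 to 8 held most of the rest. Net positive CDR3s also had more bases outside the matched segments, with a mean of 4.87, 4.91 and 5.06 against 3.97, 3.91 and 4.34 in net negative ones. These bases were counted in the same CDR3 as the charge, and most K or R codons were junctional. The count is therefore not independent of the charge rule and was not tested.

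The D segment followed the same line. TRBD1 was assigned in 55.4%, 66.7% and 57.6% of net positive rearrangements and 35.9%, 38.7% and 33.2% of net negative ones. TRBD2 was assigned in 20.8%, 11.4% and 21.2% against 36.9%, 33.9% and 37.8%. Where the frame could be read, TRBD1 stood in its DRG frame in 91 of 163 net positive CDR3s (55.8%) and 241 of 807 net negative ones (29.9%). The DWGG frame of TRBD2 was read in 1 of 42 net positive (2.38%) and 307 of 764 net negative CDR3s (40.2%). D matches of 5 or more bases were required, and shorter remnants count as junction here. TRBD2 was not tried with TRBJ1 genes, which made up 52.9% of net positive and 28.6% of net negative rearrangements. The TRBD1 and TRBD2 shares therefore carry J gene use and are not a separate result. The residues of the D frames are part of the charge, so the frame shares describe what the charge rule selected.

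An arginine set directly before the DRG of TRBD1 can give the residues RDRG, which recurred among members. The search was for these residues, whatever their codons. In a TRBV20 and TRBJ1-3 member of replicate 1 the codons for DR were not those of TRBD1. RDRG was found in 8 of 108, 7 of 135 and 4 of 35 net positive CDR3s of replicates 1, 2 and 3, or 6.83% of the 278. It was found in 2.73% of net neutral CDR3s and in 3 of 2256 net negative ones (0.133%). RDRG has a net charge of +1 itself, so the charge rule favours it among members and the contrast was not tested. The largest net positive clone of replicate 1 held it, and so did a clone of 4 cells in that library with the same TRBV5 and TRBJ2-7 genes, which differs from it at 1 residue and in 2 codons, given in capitals.
Clone of 15 cells: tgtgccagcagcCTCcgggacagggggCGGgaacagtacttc
Clone of 4 cells: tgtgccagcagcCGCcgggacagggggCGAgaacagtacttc
Their TRAs were unlike, TRAV17 joined to TRAJ45 in 15 of 15 cells and TRAV13N-3 joined to TRAJ50 in 4 of 4. Pairs of members with the same V and J genes and 1 residue of difference numbered 4 in all, each within a library, and in the 2 pairs with a TRA on both sides the TRAs were different. The motif and these pairs were looked at after values were seen.

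Only 1 net positive TRB was found at the amino acid level in more than 1 library, 1 of 277 distinct V, CDR3 and J combinations (0.361%, exact interval 0.00914 to 1.99%). The counts were 11 of 937 for net neutral (1.17%) and 32 of 2211 for net negative TRBs (1.45%, 0.992 to 2.04%). The intervals overlap, so a difference between the classes was not detectable at this depth. That TRB, of TRBV29 and TRBJ1-3, was the second largest net positive clone of both replicate 1 (7 cells) and replicate 2 (11 cells), from different mice. It was paired with the same TRA residues, of TRAV7-3 and TRAJ32, in 7 of 7 cells and in all 10 cells of replicate 2 with a single TRA. The nucleotides of both chains differed between the mice, each in 1 codon for the same residue, given in capitals.
TRB, replicate 1: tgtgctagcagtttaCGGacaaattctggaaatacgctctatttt
TRB, replicate 2: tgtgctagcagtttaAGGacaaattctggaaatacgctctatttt
TRA, replicate 1: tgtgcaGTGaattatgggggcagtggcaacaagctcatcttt
TRA, replicate 2: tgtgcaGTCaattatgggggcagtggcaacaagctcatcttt
No net positive TRB was shared between libraries by nucleotide sequence, against 3 net neutral and 8 net negative ones.

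The share of expanded clones was higher among net positive than among net negative TRBs in each library, although 3 libraries are too few for the test below to pass. A rearrangement was called expanded when it had more than 1 cell. The expanded share was 21.3%, 23.7% and 20.0% of net positive rearrangements and 19.3%, 19.4% and 10.4% of net negative ones in replicates 1, 2 and 3. The net positive share was higher in 3 of 3 libraries, by a mean of 5.33 percentage points ± 3.89 (SD, n = 3, exact two-sided sign-flip permutation test over libraries, p = 0.25, the smallest p that 3 libraries allow). Net neutral rearrangements stood at 21.7%, 22.9% and 14.9%. In replicate 3 the 20.0% rests on 7 of 35 rearrangements, with an exact interval of 8.44 to 36.9%, and without that library the mean difference was 3.18 percentage points. With a limit of more than 5 cells the net positive share was higher in 2 of 3 libraries, since replicate 1 then had 2 of 108 net positive against 24 of 753 net negative rearrangements.

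Very large clones were found in the other classes. The largest net positive clones had 15, 13 and 14 cells in replicates 1, 2 and 3, and none of the 278 exceeded 20 cells. Among net negative TRBs 10 exceeded 20 cells, led by a TRBV5 and TRBJ2-1 clone of 96 cells in replicate 2 and a TRBV13-3 and TRBJ1-4 clone of 29 in replicate 1, and the largest of replicate 3, of TRBV12-2+TRBV13-2 and TRBJ2-3, had 5. The largest of all had a charge of 0 and 365 cells, all in replicate 1. In replicate 3 the net positive TRBV19 and TRBJ1-4 clone was the largest of any charge, ahead of 7 cells for a net neutral one. 0 of 278 net positive rearrangements over 20 cells allows a share of up to 1.08%, which is above the share of net negative rearrangements over that size, 0.443%.

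The mean number of cells per rearrangement was 1.51, 1.82 and 1.77 for net positive TRBs and 1.55, 1.76 and 1.15 for net negative ones. The mean difference was 0.218 ± 0.357 cells (SD, n = 3, exact sign-flip p = 0.5), positive in 2 of 3 libraries. It rested on replicate 3, since without that library it was 0.014. Cells in expanded clones made up 47.9%, 58.1% and 54.8% of net positive cells and 47.8%, 54.1% and 21.8% of net negative ones. Net neutral TRBs had 2.67, 1.69 and 1.24 cells per rearrangement, and 70.7%, 54.4% and 31.5% of their cells in expanded clones. Their replicate 1 values include the clone of 365 cells. By charge, 54 of 237 rearrangements at +1 (22.8%) and 8 of 40 at +2 (20.0%) were expanded. The shares at 0, -1 and -2 were 21.3%, 17.4% and 19.7%, so +2 lay within their range and +1 slightly above it.

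The charge of the partner TRA did not differ between net positive and net negative TRBs beyond the spread between libraries. Distinct TRA rearrangements were counted in cells with exactly 1 productive TRA, 211 for net positive and 1602 for net negative TRBs. Their mean net charge was 0.640, 0.759 and 1.00 beside net positive TRBs and 0.750, 0.719 and 0.620 beside net negative ones in replicates 1, 2 and 3. The difference was 0.103 ± 0.251 (SD, n = 3, exact sign-flip p = 0.75), negative in replicate 1 and positive in the other libraries. Without replicate 3, which gave 17 of the 211 TRAs, it was -0.035.

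A net positive TRA CDR3 was found in 58.1%, 62.0% and 76.5% of partners of net positive TRBs and 62.4%, 62.0% and 57.7% of partners of net negative ones. The mean difference was 4.83 percentage points ± 12.3 (SD, n = 3, exact sign-flip p = 1.0), and -2.14 without replicate 3. In replicate 3 the 76.5% is 13 of 17, with an exact interval of 50.1 to 93.2% that includes the 57.7%. Net positive CDR3s were thus the common state of the TRA, 987 of 1602 beside net negative TRBs, and the uncommon one of the TRB.

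Across TRB and TRA pairs, Pearson's r of the charges was -0.008 over 930 pairs in replicate 1, 0.043 over 1336 in replicate 2 and 0.049 over 316 in replicate 3. Pairs of a library share its depth and are not independent replicates, and r is given as a description. The mean TRA charge was 0.715 for the 179 partners of TRBs at +1 and 0.774 for the 31 at +2. It was 0.726 for the 691 at 0, 0.768 for the 999 at -1, 0.617 for the 512 at -2 and 0.680 for the 97 at -3. The sum of the charges of both CDR3s was above 0 in 195 of 211 pairs with a net positive TRB (92.4%) and 214 of 1602 with a net negative TRB (13.4%), to which the TRB charge contributes by construction. It reached +5 in 1 library.

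**Figure D5:**
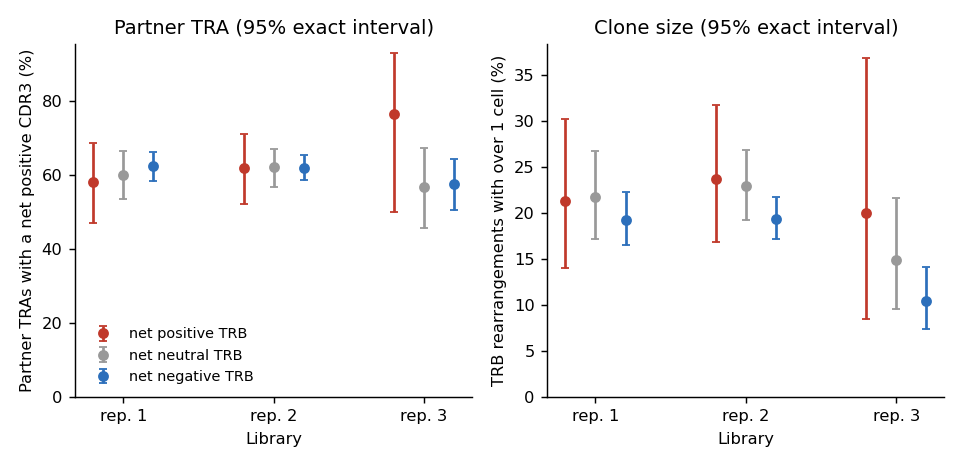
Left, percent of distinct partner TRAs with a net positive CDR3 (y axis) in each library (x axis) for net positive (red), net neutral (grey) and net negative (blue) TRBs. Right, percent of TRB rearrangements with more than 1 cell. Bars are 95% exact binomial intervals, and the red and blue intervals overlap in every library in both plots.

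TRAV use of the partners was tested with edgeR's quasi-likelihood test on counts of distinct TRAs per TRAV family, net positive against net negative TRBs with library as a block. Of 15 families 1 passed at a Benjamini-Hochberg adjusted p under 0.05, which is 6.67% of those tested. It was TRAV21, with 0 of 86, 0 of 108 and 0 of 17 partners of net positive TRBs and 20 of 580, 26 of 814 and 8 of 208 partners of net negative ones (adjusted p = 0.0070). No partner of a net positive TRB used it in any library, and it made up 3.45%, 3.19% and 3.85% of the net negative class and 3.62% of the net neutral one over all libraries. A count of 0 of 211 allows up to 1.42%, taking 3 counts over the group, against 3.37% of net negative partners. That limit sums TRAs over libraries and covers counting error only. TRAV21 was also the family of lowest p among the 15, so no minimum fold is given. The call was lost in 9 of 14 alternatives, among them DESeq2 (adjusted p = 0.13), with library totals in place of TMM (adjusted p = 0.16), and without replicate 1, 2 or 3 (adjusted p = 0.12, 0.36 and 0.44). When cells with several TRAs were included, 2 TRAV21 partners of net positive TRBs appeared, beside 60 of net negative ones.

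The families next in order were not called. TRAV9 partners were 5, 7 and 2 TRAs of net positive TRBs and 63, 78 and 21 of net negative ones in replicates 1, 2 and 3 (log2 fold change -0.86 ± 0.38, SE, edgeR adjusted p = 0.23). TRAV3 partners were 2, 1 and 2 against 29, 30 and 8 (-1.07 ± 0.56, adjusted p = 0.28). TRAV17, outside that rule and looked at after its values were seen, was 7, 1 and 0 against 6, 8 and 1, so that 7 of its 8 net positive partners lay in replicate 1 (adjusted p = 0.28). Those 7 were paired with 7 different TRBs, of which the TRBV5 and TRBJ2-7 clone of 15 cells was the largest.

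Of 39 TRAJ genes 0 were called by edgeR, which is 0% of those tested. None had an unadjusted p under 0.05 there, and DESeq2 called 0 too. The 3 with the lowest p were TRAJ18, with 1, 1 and 0 partners of net positive TRBs and 18, 21 and 9 of net negative ones (edgeR adjusted p = 0.88), TRAJ16, with 0 against 17, and TRAJ9, with 2 against 47. The size of difference that these counts could show was not estimated.

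Invariant TRAs, which mark T cells of innate-like types, were rare among members. The invariant TRA of iNKT cells, TRAV11 or TRAV11D joined to TRAJ18, was in 0 of 337 net positive cells with a single TRA, which allows a share of up to 0.890%, and in 5 of 2546 net negative cells. The TRAV1 to TRAJ33 joint of MAIT cells was in 2 of 337 and 8 of 2546. The other transcripts of these cells were not analysed here.

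Recovery of the receptor did not differ between the classes beyond the spread between libraries. A cell with a net positive TRB had no TRA in 10.4%, 22.4% and 43.5% of cases in replicates 1, 2 and 3, and a cell with a net negative TRB in 16.1%, 24.5% and 37.6%. The mean difference was -0.59 percentage points ± 5.96 (SD, n = 3, exact sign-flip p = 1.0). The spread between libraries was larger than that between classes, and replicate 3 was highest in both. The median number of TRB UMIs per cell was 6, 5.5 and 5 for net positive and 7, 6 and 4 for net negative TRBs, a mean difference of -0.17 ± 1.04 (SD, n = 3, exact sign-flip p = 1.0).

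The 9 large members named at the start varied in this recovery. In replicate 1 each of the 3 had 1 TRA in every cell. The TRBV13-3 clone of replicate 2 had a TRA of TRAV8D-1 and TRAJ49, net charge -1, in 9 cells and none in the other 4. The TRBV14 clone had a single TRA in 6 of its 10 cells and several in 4, with 2 sequences seen as the single TRA. The TRBV19 clone of replicate 3 had a TRA of TRAV13-1 and TRAJ6 in 7 of 14 cells, several TRAs in 4 and none in 3. The 4 cells of the TRBV17 clone had no TRA. The member of charge +3 was a single cell with a TRA of charge +2, of TRAV7D-3 and TRAJ12, and so gave the sum of +5.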

How the data were processed

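CD45+ sciatic nerve cells of 4 mice were profiled as 3 libraries. The authors mapped scTCR-Seq reads to mm10 with Cell Ranger, and the submitters' processing notes also name Seurat. The Cell Ranger version is not given in the sources used here. The deposited filtered contig lists give, per cell barcode and chain, counts of reads and of UMIs, with V, D and J genes and the CDR3, and they were used as deposited. The lists of all contigs, the clonotype and consensus files were not used.

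Productive contigs were kept, and barcodes with exactly 1 TRB were analysed (Python 3.11.15, pandas 2.3.3). Germline ends were read from GRCm38 with the GENCODE M21 annotation, and each CDR3 was matched from its V and J ends, then to TRBD1 or TRBD2 with at least 5 bases. In this matching TRBD2 was not tried with TRBJ1 genes. TRBV10, a pseudogene in that annotation, was left out of this step, which covered 3360 of 3488 rearrangements. Libraries were the replicates. Differences were tested with an exact two-sided sign-flip permutation test over 3 libraries, and TRAV and TRAJ counts with edgeR 4.0.16 (quasi-likelihood, TMM, library block, Benjamini-Hochberg, mean count of at least 2 per column), which was tested on simulated data, with DESeq2 1.42.0 as an alternative. Shares have 95% exact Clopper-Pearson intervals. UMIs per library ranged from 5142 to 41338, and depth sets the number of cells and the width of these intervals. The libraries come from separate mice.

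The members, gene lists and tests were chosen with earlier results of these data known. Named were TRAV families and TRAJ genes past the threshold or else the 3 of lowest p, TRBV genes with at least 20 members, all TRBJ genes, and the largest, most charged and shared rearrangements.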

Additional observations from a re-analysis of the deposited data

How the results depend on the processing

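The class shares, partner TRA charge and share, expanded share, cells per rearrangement, no-TRA share, TRB UMIs, CDR3 length and TRAV and TRAJ calls were recomputed, 104 times in all. Gene use, codon origin, motifs and sharing between libraries were not recomputed. Of the 104, 86 were marked the same. For tested differences this meant only that the sign did not reverse, whatever the size. The difference in cells per rearrangement, 0.218 with all libraries, was thus the same at 0.014 without replicate 3. Class shares and length had to move by less than the SD between libraries, and calls had to keep their number. With histidine counted as +1 the net positive share rose to 10.7% of cells and 10.2% of rearrangements. The single TRAV call became 0 calls with histidine counted, at least 3 UMIs, cells in place of rearrangements, all TRAs of a barcode, library totals or DESeq2, and 0 calls without any 1 of the replicates (range 0 to 0). It stayed at 1 call with the CDR3 ends left out, with barcodes of more than 1 TRB kept, without the count filter, with single TRAV genes and with no replicate block. With no replicate block, TRAJ calls stayed at 0. The classes were otherwise compared within libraries throughout.

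Leaving out 1 replicate at a time, the partner TRA charge difference ranged from -0.035 to 0.210 and its net positive share difference from -2.14 to 9.39 percentage points, both negative without replicate 3. The no-TRA difference ranged from -3.88 to 1.93 percentage points (1.93 without replicate 1, 0.174 without replicate 2) and was 1.96 with the largest rearrangement of each library left out. The UMI difference ranged from -0.75 to 0.25 (0.25 without replicate 1) and was 0.333 with barcodes of more than 1 TRB kept. The causes were not tested. The mean expanded share difference stayed above 0 in all 11 alternatives, from 1.28 percentage points with a limit of more than 5 cells, where 2 of 3 libraries were above 0, to 6.97 without replicate 1 (3.18 without replicate 3), and joining TRBV12-2+TRBV13-2 with TRBV13-2, chosen after seeing the data, gave 5.25. With 3 libraries no sign-flip test can pass 0.05, so these p-values say nothing about stability. Replicate 3, with 35 net positive rearrangements and 17 partner TRAs, sets the widest limits.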
